A study of Bos taurus with 24 samples.

Results

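The chemokine CXCL12 and its receptor CXCR4 were followed as 2 genes, chosen by symbol, among the 27550 named gene rows and 32296 rows for stretches between genes in the read count tables. The cultures were dermal fibroblasts from shoulder skin biopsies of female cattle of the same age, 4 Angus (a beef breed) and 4 Holstein (a dairy breed) animals, each frozen at the third passage and revived for the experiment. Every culture was sampled at 0 h, with no challenge, and after 2 h and 8 h with 100 ng/ml of lipopolysaccharide (LPS), which gave 6 groups of 4 samples and 24 samples in all. Each sample at 2 h or 8 h has its own culture's 0 h sample as control. The 3 samples of a culture come from 1 animal, so a breed was represented by 4 animals.

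CXCL12, also called stromal cell-derived factor 1, is a chemokine that fibroblasts and other stromal cells secrete constitutively. It binds CXCR4, a G protein-coupled receptor found mainly on leukocytes and stem cells, and draws cells that carry it towards the source. In skin the pair is known for its part in wound repair and in the positioning of leukocytes. The atypical receptor ACKR3 binds CXCL12 without G protein signalling and removes it from the surroundings.

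The tables hold CXCL12 on a single row on chromosome 28, from 45410676 to 45418794 on the plus strand of the UMD v3.1 assembly, a span of 8119 bases over its exons and introns. CXCR4 is on a single row on chromosome 2, from 61582125 to 61585838 on the plus strand, a span of 3714 bases. CXCL12 took 42183 counts over the 24 samples, from 99 to 7067 in a sample, and CXCR4 took 6089, from 24 to 823. Totals over all rows ran from 51014538 to 104406293 counts a sample, and levels are given as CPM, the counts of a row over the library total times 1e+06, after scaling by trimmed means (TMM). The shallowest value, CXCR4 in Holstein 4 at 0 h, rests on 24 counts, which gives 0.529 CPM with an exact 95% Poisson interval of 0.339 to 0.787 that covers counting error only. In 4 samples (Angus 4, Holstein 2 and Holstein 4 at 0 h, and Angus 3 at 2 h) the collagen gene COL1A1 showed a different counting, at 66.2 to 67.1 covered bases for each count against 111.8 to 119.0 in the other 20. The members showed no such step. CXCL12 had 79.5 to 83.8 covered bases a count in those 4 samples and 79.6 to 86.2 in the others, and CXCR4 had 88.4 to 100.6 and 89.0 to 98.9.

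The cells carried the markers of fibroblasts. The summed level of 11 fibroblast markers was 38636 to 89642 CPM in the Angus samples and 62385 to 125552 in the Holstein samples, with COL1A2 at 15009 CPM or more in every sample. This sum includes COL1A1 (5426.9 to 49172.5 CPM), whose counting differed in 4 samples, so its ranges are no measure of a breed difference. Leukocytes are the cells best known for CXCR4, and their 10 markers together reached 0.771 to 1.50 CPM in the Angus samples and 0.410 to 1.49 in the Holstein samples. PTPRC, the pan-leukocyte phosphatase CD45, was at 0.274 to 0.709 CPM, TYROBP was at 0 in 22 of 24 samples, and CD52 in 23. The 8 endothelial markers summed to 2.10 to 3.34 CPM for Angus and 2.07 to 5.25 for Holstein, with CLDN5 at 0 in 23 samples and VWF (0.513 to 3.28 CPM), TEK (0.523 to 2.72 CPM) and PECAM1 (0.0426 to 1.11 CPM) at 0 in none. The keratinocyte list (7 markers) summed to at most 2.03 CPM in Angus and 15.1 CPM in Holstein, with KRT1 at 0 in all 24 samples, TP63 at 0.666 to 1.48 CPM, and KRT5 and KRT14 at up to 10.2 and 2.77 CPM. The melanocyte list (6 markers) summed to at most 3.53 and 3.62 CPM. The 7 pericyte and smooth muscle markers with a row, several of which fibroblasts also express, summed to 477 to 960 CPM and 471 to 971 CPM, and the 4 adipocyte markers to 10.9 to 25.7 and 6.60 to 17.0 CPM. In bulk samples of this kind, fewer cells that express a gene and less RNA of it per cell cannot be told apart.

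CXCL12 was higher in every Angus culture than in every Holstein culture at each of the 3 hours. At 0 h its level was 36.0, 13.5, 10.7 and 67.2 CPM in Angus 1 to 4 and 5.48, 1.45, 6.12 and 9.36 CPM in Holstein 1 to 4. The lowest Angus culture therefore lay just above the highest Holstein culture, and Angus 4 stood highest of all 8. At 2 h the levels were 44.9, 14.2, 13.7 and 75.9 CPM in Angus and 5.05, 1.64, 5.75 and 7.84 CPM in Holstein. At 8 h they were 50.2, 18.5, 17.7 and 82.6 CPM in Angus and 6.95, 2.88, 5.65 and 10.6 CPM in Holstein. The breeds did not overlap at any hour, a pattern shown in the same direction by 7.99% of all rows tested at 0 h, 11.1% at 2 h and 9.12% at 8 h.

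**Figure D1:**
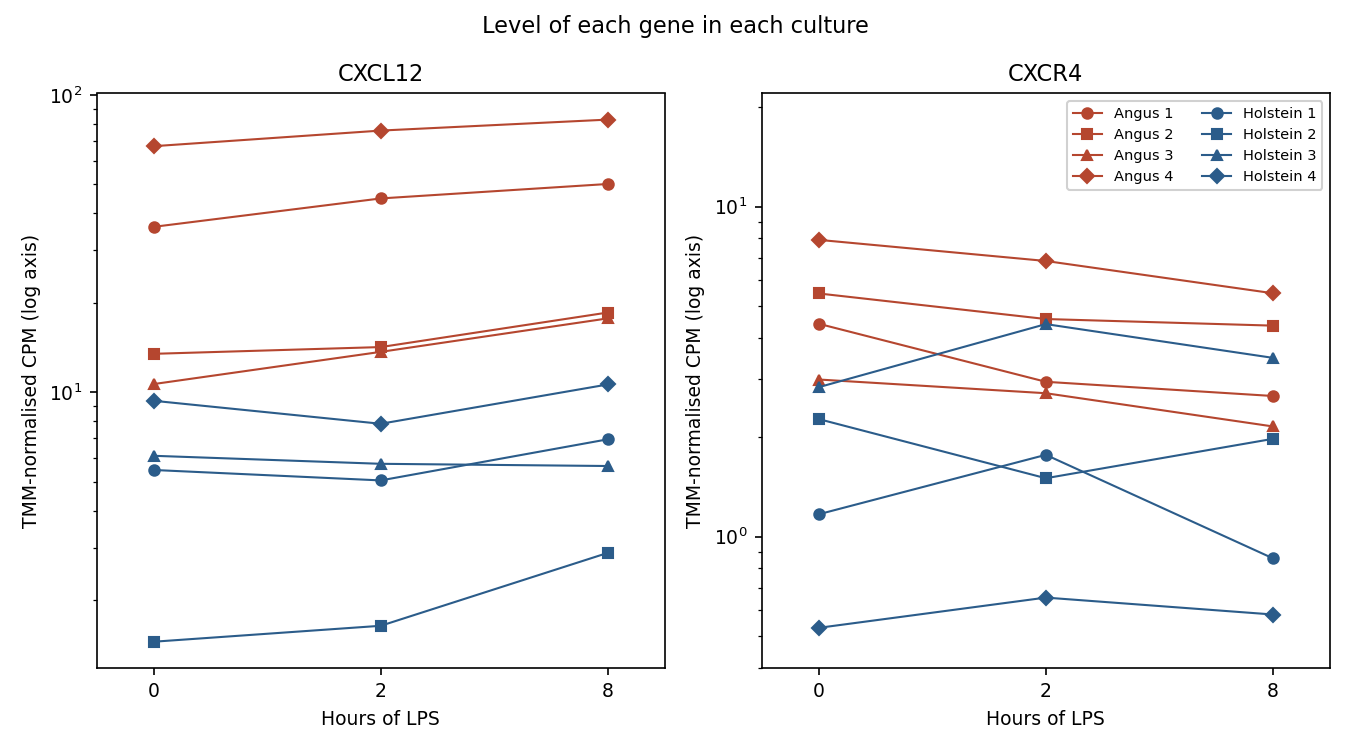
TMM-normalised CPM (log axis) of CXCL12 and CXCR4 against hours of LPS, with 1 line per culture, Angus in red and Holstein in blue and a marker shape for each animal number. All Angus lines of CXCL12 lie above all Holstein lines, whereas the CXCR4 line of Holstein 3 (2.83, 4.40 and 3.48 CPM) runs among the Angus lines at 2 h and 8 h.

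Breeds were compared with edgeR's likelihood-ratio test at each hour, and a row was called at a Benjamini-Hochberg false discovery rate (FDR) under 0.05, a fold of 2 or more and an average CPM above 1. CXCL12 was called lower in Holstein at 0 h, 2 h and 8 h, in comparisons that called 3.81%, 4.44% and 3.24% of all rows (2.08%, 2.02% and 1.03% as lower in Holstein). Its mean was 31.8 ± 26.2 CPM in Angus and 5.60 ± 3.25 CPM in Holstein at 0 h (SD, n = 4 each), a log2 fold change of -2.50 (SE 0.632, edgeR FDR = 0.00357), or 5.67-fold lower. At 2 h the means were 37.1 ± 29.6 and 5.07 ± 2.57 CPM, 7.35-fold lower in Holstein (log2 -2.88, SE 0.605, edgeR FDR = 0.000293). At 8 h they were 42.3 ± 30.8 and 6.53 ± 3.22 CPM, 6.43-fold lower (log2 -2.68, SE 0.536, edgeR FDR = 0.000159). The calls at 2 h and 8 h were kept under all 16 and 15 alternatives run. At 2 h Angus 3 alone had the other COL1A1 counting, so leaving out those samples and leaving out Angus 3 were the same fit. The call at 0 h was lost under edgeR's quasi-likelihood F test without and with the replicate block (FDR = 0.0537 and 0.0771) and in the 5 samples left without those with the other COL1A1 counting (log2 -1.79, FDR = 0.0576), 3 of the 4 excluded samples being 0 h samples.

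CXCR4 was also lower in Holstein at 0 h, and less evenly so later. At 0 h its level was 4.41, 5.45, 2.99 and 7.92 CPM in Angus 1 to 4 and 1.17, 2.27, 2.83 and 0.529 CPM in Holstein 1 to 4. These groups did not overlap, a pattern shown in the same direction by 7.99% of all rows tested at 0 h. Angus 3 and Holstein 3 lay next to each other. At 2 h the Angus cultures were at 2.94, 4.56, 2.72 and 6.84 CPM and the Holstein cultures at 1.77, 1.50, 4.40 and 0.653 CPM. At 8 h they were at 2.67, 4.36, 2.16 and 5.46 CPM and at 0.859, 1.98, 3.48 and 0.580 CPM. Holstein 3 lay above Angus 1 and Angus 3 at both later hours, and the other 3 Holstein cultures stayed below every Angus culture.

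CXCR4 was called lower in Holstein at 0 h, where 3.81% of rows were called, and not at 2 h or 8 h. The means at 0 h were 5.19 ± 2.08 CPM in Angus and 1.70 ± 1.04 CPM in Holstein (SD, n = 4 each), 3.04-fold lower in Holstein (log2 -1.60, SE 0.479, edgeR FDR = 0.0130). The differences at 2 h and 8 h were -1.04 (SE 0.535, edgeR FDR = 0.162) and -1.08 (SE 0.541, edgeR FDR = 0.165) on the log2 scale. Their 95% intervals ran from -2.09 to 0.00473 and from -2.14 to -0.0221, and both hold the value found at 0 h. Without Holstein 3, CXCR4 was called at 2 h (log2 -1.71, edgeR FDR = 0.00397) and at 8 h (log2 -1.69, edgeR FDR = 0.0135). The call at 0 h was lost without Angus 4 (FDR = 0.0791), without Holstein 1 (FDR = 0.0669), under the F test without and with the block (FDR = 0.0667 and 0.162) and without the samples with the other COL1A1 counting (log2 -1.09, FDR = 0.290).

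**Figure D2:**
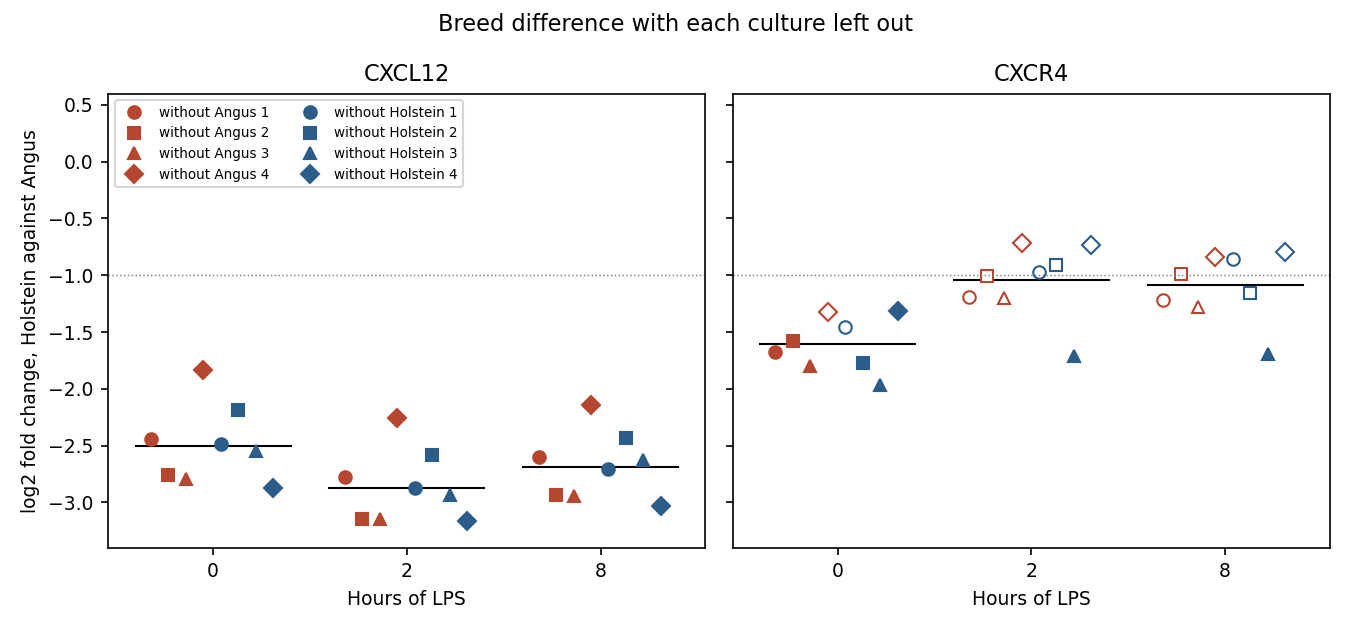
Log2 fold change of Holstein against Angus at each hour, from fits that left out 1 culture each (markers, filled where called) and from all 8 cultures (black bars). CXCL12 stayed called in all 24 fits, from -3.16 to -1.84, and CXCR4 at 2 h and 8 h was called without Holstein 3 alone.

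Angus 4 carried the highest level of both genes at every hour and weighed most on the size of the CXCL12 difference. Without it the log2 fold change of CXCL12 was -1.84, -2.26 and -2.15 at the 3 hours, with an edgeR FDR of 0.0320, 0.00249 and 0.000968. That of CXCR4 was -1.33, -0.72 and -0.84. Within Angus the cultures fell at 2 levels of CXCL12, with Angus 1 and Angus 4 at 36.0 CPM or more and Angus 2 and Angus 3 at 18.5 CPM or less. Holstein 2 had the lowest CXCL12 at each hour.

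The spread between cultures of a breed was larger than that between the hours of a culture. For CXCL12 the SD of log2(CPM + 1) among the 4 Angus cultures was 1.06 to 1.19 across the hours, whereas the SD over the 3 hours of a culture had a median of 0.235. In Holstein these values were 0.657 to 0.887 and 0.202. For CXCR4 they were 0.478 to 0.498 and 0.204 in Angus, and 0.598 to 0.708 and 0.222 in Holstein. The highest Angus culture exceeded the lowest 6.31-fold in CXCL12 at 0 h, and the Holstein cultures spanned 6.46-fold. For CXCR4 the spans at 0 h were 2.65-fold and 5.36-fold. All 4 Angus cultures kept their rank at every hour for both genes, and 2 of 4 Holstein cultures did so for each gene.

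The 2 genes did not order the cultures alike. In Angus the order of CXCL12 from high to low was 4, 1, 2 and 3 and that of CXCR4 was 4, 2, 1 and 3. In Holstein, culture 4 had the highest CXCL12 and the lowest CXCR4 at every hour. With the means of the 6 groups removed, Pearson's r between the genes was 0.115 over 24 samples, which are 3 samples of each of 8 cultures and share their libraries. Averaged over the 3 hours, the difference between log2(CPM + 1) of CXCL12 and of CXCR4 was 3.37, 1.49, 2.03 and 3.31 in Angus 1 to 4 and 1.60, 0.0149, 0.594 and 2.69 in Holstein 1 to 4. The breeds overlapped in this ratio.

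With each culture reduced to its mean over the 3 hours, the breeds were also compared by an exact permutation test of 4 against 4 cultures (two-sided), whose smallest possible p is 0.0286. CXCL12 was 4.91-fold lower in Holstein on the scale of CPM + 1, with all 4 Angus cultures above all Holstein cultures (exact permutation p = 0.0286, 0.0857 after Benjamini-Hochberg adjustment over 3 values). CXCR4 was 0.97 lower on the log2(CPM + 1) scale, with 2 of 4 Angus cultures above all Holstein cultures (exact permutation p = 0.0857, adjusted 0.129). The log2 ratio was 1.33 lower in Holstein (exact permutation p = 0.143, adjusted 0.143). None passed 0.05 after adjustment.

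In order of mean level, CXCL12 stood highest in Angus at 8 h (42.3 CPM), then in Angus at 2 h and 0 h, Holstein at 8 h (6.53), Holstein at 0 h (5.60) and Holstein at 2 h (5.07). Of the neighbours in that order, Angus at 0 h and Holstein at 8 h alone did not overlap, at a lowest value of 10.7 and a highest of 10.6 CPM. CXCR4 stood highest in Angus at 0 h (5.19 CPM), then in Angus at 2 h (4.26) and 8 h (3.66), Holstein at 2 h (2.08), 8 h (1.72) and 0 h (1.70). All of its neighbours in the order overlapped.

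After LPS both genes stayed within a fold of 2 of their 0 h level in every culture. CXCL12 was higher at 8 h than at 0 h in 7 of 8 cultures, by 39.4%, 37.7%, 66.3% and 22.9% in Angus 1 to 4 and by 26.8%, 99.0% and 13.5% in Holstein 1, 2 and 4, with Holstein 3 at 0.924 of its 0 h level. CXCR4 was lower at 8 h in all 4 Angus cultures, at 0.604, 0.799, 0.721 and 0.689 of the 0 h level, and in Holstein 1 and 2 at 0.735 and 0.871. It was higher in Holstein 3 and Holstein 4, at 1.23 and 1.10 of the 0 h level. At 2 h all 4 Angus cultures had more CXCL12 (1.05 to 1.28 times) and less CXCR4 (0.667 to 0.909 times) than at 0 h. In Holstein 3 of 4 cultures had less CXCL12 and 3 of 4 had more CXCR4.

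No change with time was called for either gene, in the breeds together or apart. For the breeds combined, 2.82% of rows were called at 2 h, 1.42% at 8 h and 2.76% between 8 h and 2 h. Neither member was called in Holstein, where these shares were 3.14%, 2.51% and 3.89%, or in Angus, where they were 2.97%, 0.863% and 2.36%. The log2 fold change of CXCL12 for the breeds combined was 0.16 (SE 0.720, edgeR FDR = 0.938) at 2 h and 0.38 (SE 0.694, edgeR FDR = 0.806) at 8 h. That of CXCR4 was -0.13 (SE 0.479, edgeR FDR = 0.923) and -0.36 (SE 0.484, edgeR FDR = 0.713). The 95% interval at 8 h ran from -0.98 to 1.74 for CXCL12 and from -1.31 to 0.59 for CXCR4.

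The samples at the 3 hours came from the same animals, and fits with the animal as a block gave narrower errors. With that block CXCL12 was 0.40 higher at 8 h than at 0 h on the log2 scale (SE 0.0955, edgeR FDR = 0.000141) and CXCR4 0.32 lower (log2 -0.32, SE 0.123, edgeR FDR = 0.0285). Both passed the FDR limit and stayed under the fold of 2, so neither was called. In Angus alone the blocked values at 8 h were 0.48 for CXCL12 (edgeR FDR = 2.78e-06) and -0.52 for CXCR4 (edgeR FDR = 0.00104). In Holstein alone they were 0.33 (edgeR FDR = 0.155) and -0.05 (edgeR FDR = 0.878). Between 8 h and 2 h CXCL12 was higher by 0.32 with the block (edgeR FDR = 0.000117) and CXCR4 was at -0.25 (edgeR FDR = 0.115). At 2 h against 0 h only CXCL12 in Angus passed the FDR limit among the blocked fits of the 2 genes for that interval (0.23, edgeR FDR = 0.0115).

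**Figure D3:**
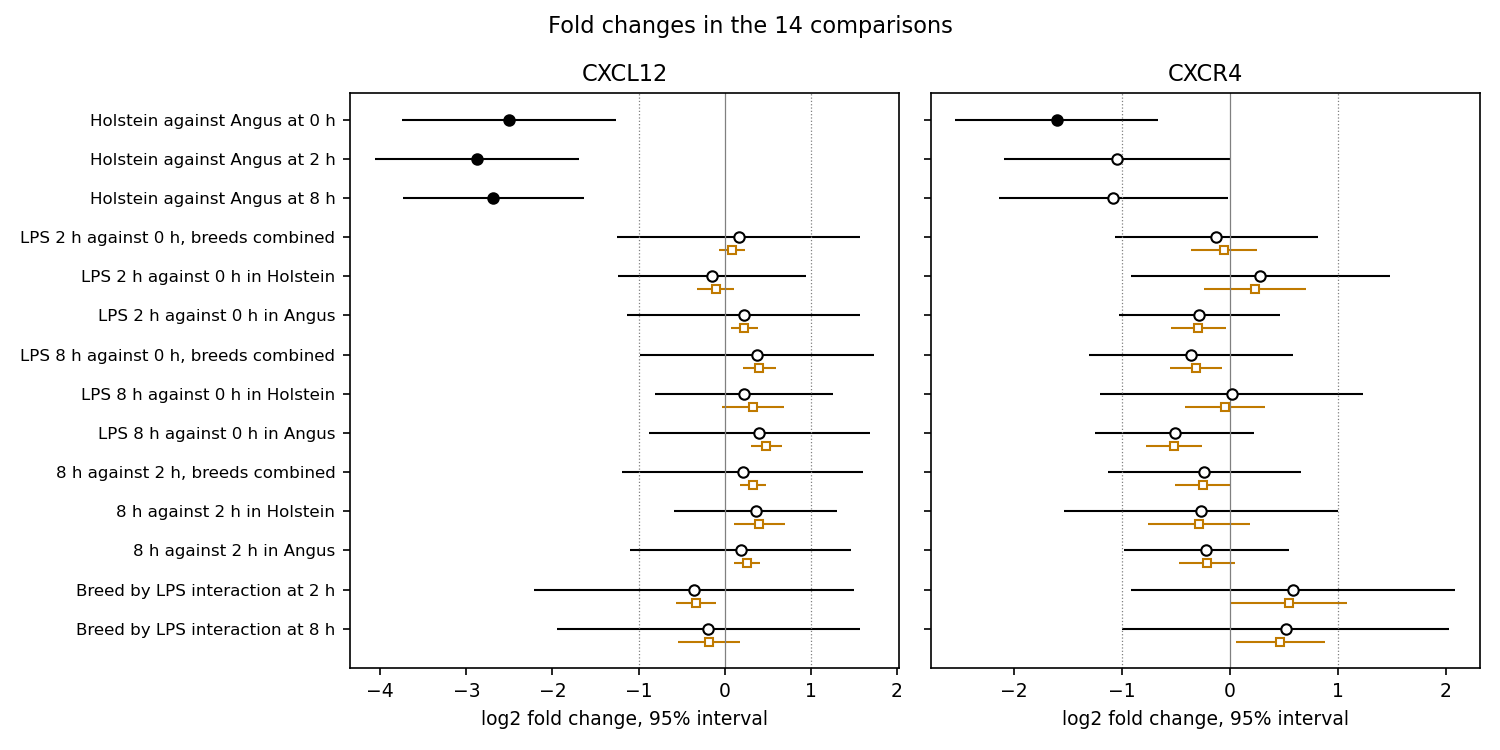
Log2 fold change of each gene with its 95% interval in the 14 comparisons, from fits without a block (circles, filled where called) and, for comparisons over time, with the animal as a block (orange squares). Dotted lines mark a fold of 2, and no estimate over time reaches them.

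An exact sign-flip test on the 8 changes per culture (two-sided, smallest possible p = 0.00781) gave the same directions. At 8 h the mean change was 0.36 ± 0.26 for CXCL12 on the log2(CPM + 1) scale (SD, n = 8, exact p = 0.0156, adjusted over 4 values 0.0625) and -0.22 ± 0.26 for CXCR4 (exact p = 0.0703, adjusted 0.141). At 2 h it was 0.07 ± 0.20 for CXCL12 (exact p = 0.320, adjusted 0.427) and -0.05 ± 0.34 for CXCR4 (exact p = 0.695, adjusted 0.695). The difference between the breeds in the response to LPS was not called for either gene, in comparisons that called 0.278% of rows at 2 h and 0.0982% at 8 h. With the animal as a block the interaction was -0.33 for CXCL12 (edgeR FDR = 0.0831) and 0.55 for CXCR4 (edgeR FDR = 0.341) at 2 h, and -0.18 (edgeR FDR = 0.774) and 0.47 (edgeR FDR = 0.313) at 8 h.

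The stretch just downstream of CXCL12 carried almost as many reads as the gene itself. The tables hold a row for chromosome 28 from 45418795 to 45900066 (UMD v3.1), 481272 bases with no annotated gene between the end of CXCL12 and the pseudogene LOC100140590. It took 40106 counts over the 24 samples, from 101 to 7894, whereas the stretch of 274072 bases upstream of the gene took 1552, from 28 to 114. The ratio of the downstream stretch to CXCL12 was 0.676 to 1.21 in the 24 samples, with a median of 0.939, while CXCL12 itself varied from 1.45 to 82.6 CPM. The deepest position in the stretch was covered by 9 to 280 reads. The tables do not give where in the stretch the reads lie, and the counting is not stated to use strand.

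The downstream stretch was also called lower in Holstein at each hour. It was 5.22-fold lower in Holstein at 0 h (log2 -2.39, SE 0.642, edgeR FDR = 0.00660), 10.6-fold lower at 2 h (log2 -3.41, SE 0.597, edgeR FDR = 1.26e-05) and 5.53-fold lower at 8 h (log2 -2.47, SE 0.489, edgeR FDR = 0.000120). The call at 0 h was lost without Angus 4, among others (FDR = 0.0572). At 2 h its ratio to CXCL12 was 0.935 to 1.21 in Angus and 0.676 to 0.944 in Holstein, against 0.810 to 0.953 and 0.746 to 1.17 at 0 h. In RefSeq's gene order for the assembly ARS-UCD2.0, the gene after CXCL12 is a long non-coding RNA, LOC101902647, which has no row of its own in the tables.

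**Figure D4:**
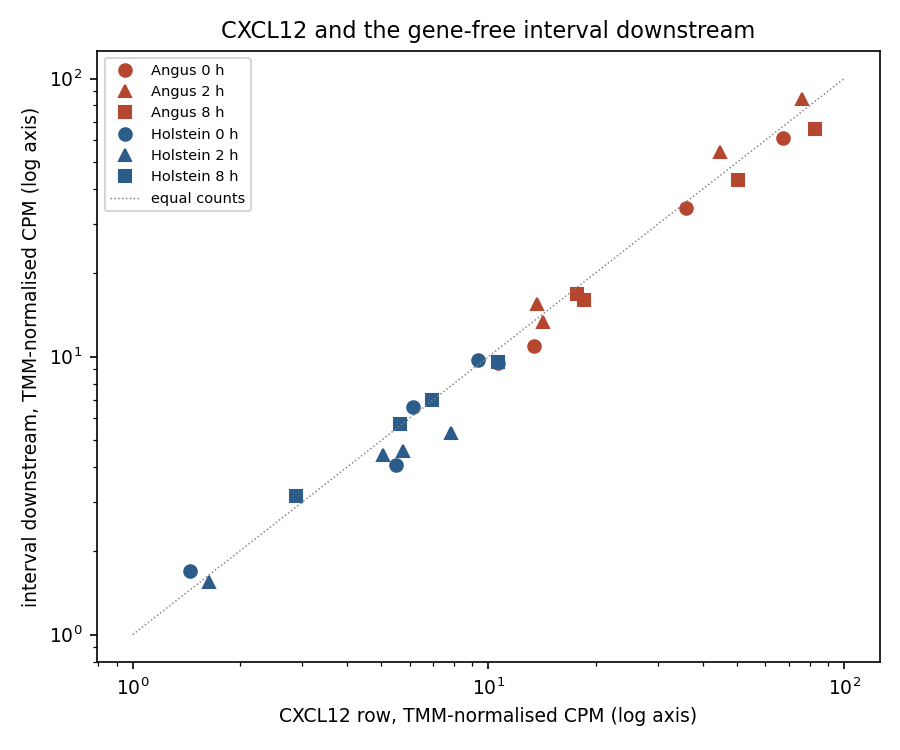
TMM-normalised CPM of the gene-free stretch downstream of CXCL12 against that of the CXCL12 row (both axes log), with 1 point per sample, Angus in red and Holstein in blue and a shape for each hour. All 24 points lie along the dotted line of equal counts, at ratios of 0.676 to 1.21.

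No stretch beside CXCR4 was called between breeds. The stretch of 136613 bases after it held 1385 counts, from 30 to 76 a sample, and was under the CPM filter in the 3 breed comparisons and the 3 comparisons over time with the breeds combined. The stretch of 964777 bases before it held 5136 counts, from 124 to 307 a sample, beside 6089 for CXCR4, from 24 to 823. This stretch had breed log2 fold changes of -0.00219, -0.12 and 0.35 at the 3 hours (edgeR FDR = 0.997, 0.801 and 0.218). The next gene rows on either side, HNRNPA1L2 and DARS, were not called in the 3 breed comparisons, with HNRNPA1L2 at -0.53, -0.62 and -0.57 (edgeR FDR = 0.0132, 0.00184 and 0.00230, under a fold of 2) and DARS at -0.16, -0.15 and -0.19 on the log2 scale.

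Among the other ligands and receptors of the axis, none was called between breeds or with LPS by edgeR's likelihood-ratio test, its F test or DESeq2. Of the 6 genes listed, 4 were tested, and apart from CXCL12 and CXCR4 themselves these are ACKR3 and MIF. ACKR3, listed as CXCR7, was at 292 ± 11.8 CPM in Angus and 261 ± 57.1 CPM in Holstein at 0 h (SD, n = 4 each), and its breed differences were -0.16, 0.12 and -0.16 on the log2 scale (edgeR FDR = 0.540, 0.599 and 0.532). MIF, a cytokine that can bind CXCR4, was at 44.3 ± 11.1 and 35.3 ± 2.16 CPM at 0 h, with differences of -0.33, -0.41 and -0.55 (edgeR FDR = 0.217, 0.166 and 0.0393, under a fold of 2). CXCL14 and CD74, the MIF receptor chain, stayed under the filter, with at most 17 and 14 counts in a sample. With LPS at 2 h ACKR3 was at -0.32 (edgeR FDR = 0.0232) and at 8 h at -0.23 (edgeR FDR = 0.202), both under a fold of 2. With the animal as a block it was at -0.31 (edgeR FDR = 3.61e-05) and -0.23 (edgeR FDR = 8.51e-05), past the FDR limit and again under that fold.

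No other chemokine receptor reached the level of a test. Of 21 listed, 20 had a row and 0 passed the CPM filter in any comparison. CCR7 took the most counts of them, 1 to 104 in a sample, and CXCR3, XCR1, CCR2 and CCR3 were at 0 in every sample, which allows up to 3 counts, or 0.0287 to 0.0588 CPM by library. CXCR4 and ACKR3 were therefore the 2 CXCL12 receptors, and the 2 chemokine receptors of these lists, that were measured above the filter.

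Among genes that process CXCL12 or hold it at the cell surface, those that passed the CPM filter and were called between breeds were higher in Holstein. The protease DPP4 was under that filter and went the other way in fits without it (log2 -2.78, -2.07 and -2.43, edgeR FDR = 9.33e-07, 0.00125 and 0.000124). Of 14 listed, 9 were tested, and 2, 1 and 2 were called higher and 0 lower in Holstein at 0 h, 2 h and 8 h, where 3.81%, 4.44% and 3.24% of all rows were called, with a median log2 fold change of 0.24, 0.23 and 0.14 beside -0.00221, -0.00855 and 0.00569 over all rows. The quasi-likelihood F test called 1 of the 9 at each hour. SDC1, a heparan sulphate proteoglycan that binds chemokines, was at 38.6 ± 12.6 CPM in Angus and 98.2 ± 15.4 CPM in Holstein at 0 h (SD, n = 4 each). It was 2.54-fold, 2.42-fold and 2.26-fold higher in Holstein at the 3 hours (edgeR FDR = 2.84e-06, 9.23e-07 and 2.57e-05). Without Angus 4 its fold at 8 h was just under 2 (log2 0.98). The gene CPM, which encodes carboxypeptidase M, an enzyme that trims the end of CXCL12, was called higher in Holstein at 0 h (log2 1.05, edgeR FDR = 0.0385) and 8 h (log2 1.60, edgeR FDR = 0.00988). It was also called higher at 8 h than at 0 h with the breeds combined (log2 1.31, edgeR FDR = 0.0302). The breed call at 0 h was lost in 5 of 8 fits that left out a culture, and the LPS call in 6 of 8 such fits without a block. With the animal as a block this gene stayed called for LPS at 8 h (log2 1.13, edgeR FDR = 6.86e-17). Under the F test without a block it was called between breeds neither at 0 h (FDR = 0.0946) nor at 8 h (FDR = 0.0570). SDC4, another such proteoglycan, rose 3.38-fold with 2 h of LPS (edgeR FDR = 3.01e-20) and was not called between breeds.

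The signal transduction genes downstream of CXCR4 had 0 breed calls, near the share of all rows called (3.81%, 4.44% and 3.24%). Of 31 listed, 29 had a row and 24 were tested, with 0 called in either direction at any hour and medians of 0.03, 0.05 and 0.07. The quasi-likelihood F test and DESeq2 also called 0 of them. An unadjusted edgeR p under 0.05 was found for 8 of the 24 in at least 1 of the 3 breed comparisons. The share of all rows with such a p was not computed, so the 8 are not read as a result about the list. With LPS, PIK3R1, a regulatory subunit of phosphoinositide 3-kinase, fell 2.33-fold at 2 h, and PAK1, a kinase that acts on the cytoskeleton, fell 3.04-fold at 8 h (1 of 24 called at each hour, where 2.82% and 1.42% of all rows were).

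Of 17 genes for desensitisation and turnover of CXCR4, 15 were tested. Between breeds 1 of the 15 was called at 0 h and 0 at 2 h and 8 h, where 3.81%, 4.44% and 3.24% of all rows were. RGS4, which shortens G protein signals, was called higher in Holstein at 0 h (2.49-fold, edgeR FDR = 0.00245) and not at 2 h or 8 h. Without the samples with the other COL1A1 counting its log2 fold change at 0 h was 0.54 (edgeR FDR = 0.432). RGS16, of the same family, rose 14.6-fold with LPS at 2 h and 2.29-fold at 8 h (edgeR FDR = 0.00377 at 8 h). It was the 1 gene of 15 called at each of these hours, where 2.82% and 1.42% of all rows were. The arrestins and the receptor kinases were tested and not called in these 5 comparisons.

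Among 16 genes for transcription factors tied to CXCL12 or CXCR4, 14 were tested, and those called with LPS in the breeds combined all rose. At 2 h RELB rose 4.83-fold, NFKB1 3.58-fold and TBX3 3.08-fold, and at 8 h RELB rose 3.47-fold, NFKB2 2.81-fold, NFKB1 2.29-fold and HIF1A 2.02-fold, which is 3 and 4 of 14 called where 2.82% and 1.42% of all rows were, with medians of 0.16 and 0.09. HIF1A, the hypoxia-inducible factor known to act on both members, was just under the fold of 2 with the animal as a block (log2 0.96), and lost the call in 3 of 8 fits that left out a culture. RELB, NFKB1 and NFKB2 are NF-kappaB subunits. Between breeds SMAD3, a mediator of transforming growth factor beta signals, was called higher in Holstein at 2 h (2.05-fold). That is 1 of 14 called where 4.44% of all rows were, and 0 of the 14 were called at 0 h or 8 h. SMAD3 lost the call, on the fold limit, without Angus 1 or Angus 4. The breed medians of the 14 were 0.23, 0.22 and 0.33 at the 3 hours, with 5, 4 and 5 of them negative. An unadjusted edgeR p under 0.05 was found for 11 of the 14 in at least 1 of the 3 breed comparisons. The share of all rows with such a p was not computed, so this count is not read as a result about the list.

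**Figure D5:**
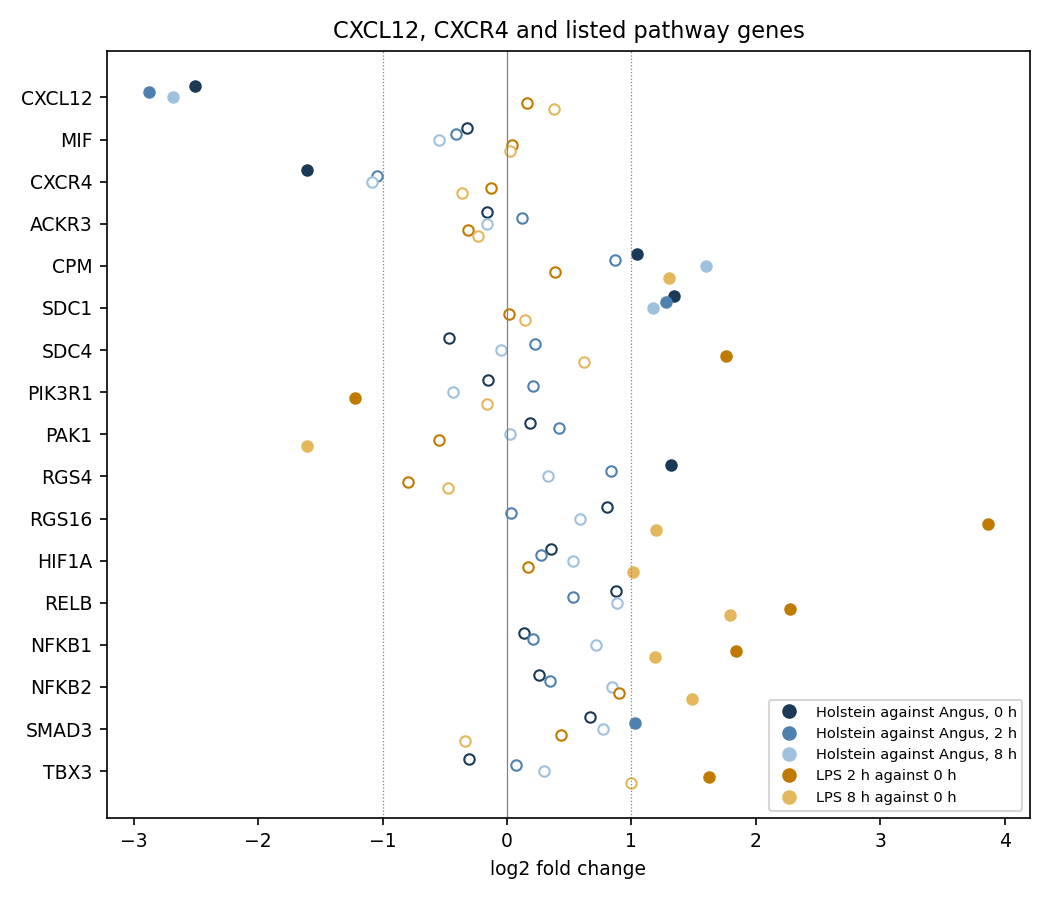
Log2 fold change of CXCL12, CXCR4 and the listed pathway genes called in at least 1 of 5 comparisons, with ACKR3 and MIF, for Holstein against Angus at 0 h, 2 h and 8 h (blue) and for LPS at 2 h and 8 h with the breeds combined (orange). Filled points were called and dotted lines mark a fold of 2. The proliferation genes are not drawn, and CXCL12 is the only gene drawn with 3 filled points on the Angus side.

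Genes of proliferation moved with the breeds as the members did, and their part in the difference of CXCL12 and CXCR4 was not tested. Of 10 such genes, all tested, 8, 9 and 1 were called lower in Holstein at the 3 hours in turn, where 2.08%, 2.02% and 1.03% of all rows were. All 10 had a negative log2 fold change and an unadjusted edgeR p under 0.05 at each hour. The share of all rows with such a p was not computed. The medians of the 10 were -1.35, -1.29 and -0.90 beside -0.00221, -0.00855 and 0.00569 over all rows. The list was drawn up with earlier results of these samples known, so its direction is no independent evidence. The summed level of the 10 was 1379, 1039, 620 and 1795 CPM in Angus 1 to 4 at 0 h and 505, 413, 542 and 296 CPM in Holstein 1 to 4. Angus 4 was again the highest. Holstein 4 was the lowest, as it was for CXCR4 (0.529 CPM at 0 h), whereas it had the highest CXCL12 of the Holstein cultures (9.36 CPM at 0 h). At 8 h the sum was 750 to 1576 CPM in the Angus cultures and 438 to 759 CPM in the Holstein cultures, with Angus 3 just below Holstein 1. MKI67, a marker of cycling cells, was 3.06-fold lower in Holstein at 0 h and TOP2A 3.57-fold. Without the samples with the other COL1A1 counting, MKI67 (log2 -1.05, edgeR FDR = 0.0954) and 6 of the other genes called at 0 h lost their calls, and TOP2A did not.

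The genes whose levels ran most like CXCL12 over the 24 samples, among 12957 named rows, were S100A10 (Pearson's r 0.954), IFRD2 (0.950), DKK2 (0.939), PCOLCE2 (0.933) and SH3KBP1 (0.932). DKK2, a secreted modulator of Wnt signalling, had breed log2 fold changes of -2.35, -2.41 and -2.02. S100A10 and SH3KBP1 were at -0.71 and -0.33 at 0 h. With the group means removed the likest included ARHGAP23 (0.946), SRCIN1 (0.936), HSPA12A (0.930) and MMP17 (0.929), and of these 4 HSPA12A alone was past the FDR limit in a breed comparison. For CXCR4 the likest were CENPQ (0.925), a kinetochore protein, DICER1 (0.902), MYLK (0.894), ZWINT (0.879), also a kinetochore protein, and KIAA1279 (0.876). With the group means removed they were KAT7 (0.885), CENPQ (0.881), SEMA3E (0.868), ZWINT (0.867) and MYLK (0.866). These correlations are descriptions over 24 samples from 8 cultures.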

How the data were processed

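RNA-seq counts were analysed for 24 samples, 4 Angus and 4 Holstein dermal fibroblast cultures at 3 hours. The authors aligned the reads to the UMD v3.1 bovine assembly and exported, with NextGENe 2.3.4, a table per sample whose rows are genes and the stretches between them. The deposited read counts are raw, and the deposited signal columns give the mean and highest coverage of each row, from which covered bases a count were computed. Strand was not stated to be used in counting. Totals were 51014538 to 104406293 counts a sample, with 92.9% to 96.5% of reads matched.

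After the study's methods, separate fits were made for each comparison with edgeR 4.0.16 in R 4.3.3 (likelihood-ratio test, TMM scaling, rows at 1 CPM or more in at least 50% of samples), and 14 comparisons were made. Per-culture values were tested with SciPy 1.17.1 in Python 3.11.15 on log2(CPM + 1). The code was tested on simulated data. Alternatives were the F test, DESeq2 1.42.0, RLE scaling, no CPM filter, named rows only, an animal block, leaving out each culture, and leaving out the 4 samples with another COL1A1 counting. Named genes were both members, ACKR3, MIF, CD74 and CXCL14 whatever their values, the 2 rows on either side of each member, the listed pathway genes called in the breed comparisons or in the combined LPS comparisons, and the 5 genes most like each member by Pearson's r, over all samples and with group means removed (1 of them is not reported here). From the proliferation list 2 examples are given. The members and lists were chosen with earlier results of these data known.

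Samples of the same animal deviated together, with r of 0.432 or more in all 24 pairs (mean 0.658 for 0 h and 2 h), so the animal pairs the hours. Equal numbers in the breeds name unrelated animals (at 0 h their r averaged -0.112). No samples were duplicates (36 pairs within groups, chi-square per degree of freedom 23.2 or more).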

Additional observations from a re-analysis of the deposited data

How the results depend on the processing

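Of the fits of CXCL12 and CXCR4 under the alternatives, 377 kept their direction and side of the threshold, 8 lost and 2 gained a call, and 9 changed sign. In the breed comparison at 2 h, the fit without Angus 3 and that without the samples with another COL1A1 counting were the same and are both counted. At 0 h CXCL12 (-2.50) lost its breed call under the F test (-2.51), the F test with the replicate block (-2.40, an alternative chosen after seeing the data) and without the 4 samples with another COL1A1 counting (-1.79). CXCR4 (-1.60) lost it under the same 3 (-1.59, -1.69 and -1.09), and ranged from -1.97 to -1.31 when a culture was left out. Its ranges at 2 h and 8 h were -1.71 to -0.72 and -1.69 to -0.80, called without Holstein 3. The cause was not tested. The replicate block, which pairs unrelated animals between breeds, gave -2.42 and -1.73 at 0 h and changed no call of either gene. Signs turned in LPS comparisons that were not called. CXCR4 at 8 h in Holstein (0.02) was at -0.0155 under the F test, -0.0484 with the block, -0.0493 with both, -0.21 without the 4 samples and -0.23 to 0.0998 without a culture. CXCR4 at 2 h in Holstein ran from -0.0300 to 0.58 without a culture. Without the 4 samples CXCR4 was at 0.16 at 2 h in Angus and -0.11 for the interaction at 2 h, CXCL12 between 8 h and 2 h in Angus was at -0.0862, and the change per culture of CXCR4 at 2 h was 0.0440. That change ran from -0.13 to 0.0101 without a culture, and MIF at 8 h of LPS from -0.0440 to 0.0964.

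Rows called between breeds fell from 776, 897 and 670 to 74, 226 and 33 under the F test with the block. At 0 h they were 259 without the 4 samples and 515 without Angus 4, and at 8 h 1127 without Angus 3 and 446 without Angus 4. Fits of named rows only called 369 in place of 568 for LPS at 2 h (breeds combined) and 408 in place of 638 (Holstein). For 8 h against 2 h they called 367 in place of 560 (combined), 523 in place of 799 (Holstein) and 307 in place of 482 (Angus). For the interaction at 2 h they called 28 in place of 56. These fits left out the stretches between genes, and the cause of the lower counts was not tested. The F test called 90 in place of 178 for LPS at 8 h in Angus and 16 in place of 56 for the interaction at 2 h. For the interaction at 8 h it called 0 in place of 20, with 756 rows at an unadjusted p under 0.05. The block called 126 and 100 for the interactions. Leaving out a culture gave 33 (Angus 4) and 34 (Holstein 1) at 2 h, and 8 (Angus 1), 62 (Angus 3) and 2 (Holstein 4) at 8 h, where leaving out the 4 samples gave 6. CXCR4 in Holstein 4 rests on few counts, and 4 animals a breed limit the precision of each breed value.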

Other observations

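Some listed genes fell below the CPM filter and were looked at after their values were seen, in edgeR likelihood-ratio fits without that filter. DPP4, the dipeptidyl peptidase that cuts and inactivates CXCL12, was at 1.20 ± 0.575 CPM in Angus and 0.177 ± 0.0723 CPM in Holstein at 0 h (SD, n = 4 each). Every Angus culture lay above every Holstein culture at 0 h (0.607 to 1.93 against 0.109 to 0.269 CPM). Of the rows that passed the filter at that hour, 7.99% showed this pattern in the same direction. PIK3CG, a catalytic subunit of the phosphoinositide 3-kinase used by G protein-coupled receptors, was higher in Holstein, at 2.09, 2.63 and 2.08 (edgeR FDR = 0.0208, 0.0161 and 0.0148). CCR7, the receptor of CCL19 and CCL21, was at -2.70, -2.78 and -1.24 (edgeR FDR = 0.0186, 0.0761 and 0.0592) on at most 104 counts in a sample.

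GNAI1, a G protein subunit through which CXCR4 signals, passed the filter and was not called between breeds, at -1.18, -1.17 and -1.15 on the log2 scale (edgeR FDR = 0.397, 0.327 and 0.314). At 0 h the Holstein cultures spanned 0.643 to 28.7 CPM and the Angus cultures 21.1 to 33.8 CPM.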
